A study of Drosophila melanogaster with 3 samples.

Results

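The Enhancer of split HLH genes are 7 transcription factor genes that lie side by side on the right arm of the third chromosome of Drosophila melanogaster. They were taken by their symbols, as the protein-coding genes whose name begins with E(spl) and ends with -HLH, which gave 7 of the 13945 protein-coding genes in the annotation. The rule uses no measured value, although the genes were picked out with earlier results of this experiment known. The genes are classical targets of Notch signalling: when the Notch receptor is activated, its intracellular part enters the nucleus and, with the DNA-binding protein Su(H), switches them on. Their products are basic helix-loop-helix (bHLH) repressors of the Orange type that end in a short tail by which they recruit the co-repressor Groucho. In the embryonic neuroectoderm they are known for holding back proneural genes in cells that do not become neuroblasts.

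Binding of the protein CG10543 was measured by chromatin immunoprecipitation with sequencing (ChIP-seq) in 3 biological replicates of 1 group, so there was no comparison between groups. Each replicate was whole embryos of both sexes aged 0 to 24 h, from a stable transgenic line of strain CG10543-GFP in which GFP is joined to the C-terminus of CG10543, with anti-GFP antibody used on chromatin sonicated to 200 to 800 bp. All 3 replicates carry the transgene and come from the same line, and embryos lacking the tag were not analysed here. An embryo collection of this age mixes all tissues and stages, so a value does not show in which cells the protein was bound.

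The authors deposited 30000 regions for each replicate and 7545 peaks that passed an irreproducible discovery rate (IDR) step. That step compares the ranks of regions between replicates, and a single peak on its list need not rank high in each of them. Each region has a summit, the base of highest enrichment, and a signal value from the peak caller. Rank 1 is the region with the highest signal in its own list, and signals were used only to rank or describe regions within a list. Read counts are not in these lists, and the depth of each sample is therefore unknown. A q-value, the p-value of a region adjusted over its list, was under 0.01 for 12593 regions in replicate 1, 7016 in replicate 2 and 7612 in replicate 3.

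All 7 genes matched the label in sequence as well as in name. Each has 1 exon and 1 annotated transcription start site (TSS), 5 lie on the plus strand and 2 on the minus strand. The proteins translated from the annotated coding sequence are 173 to 224 residues long, and 7 of 7 end in the residues WRPW, the tail that binds Groucho. Over the 21 pairs, identity in global alignments ranged from 27.8% to 58.2% with a median of 38.5%. The most alike pair was E(spl)m5-HLH and E(spl)m8-HLH at 58.2%, followed by E(spl)mgamma-HLH and E(spl)mbeta-HLH at 51.2%.

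CG10543-eGFP IDR summits stood within 500 bp upstream of the start sites of E(spl)mbeta-HLH, E(spl)m3-HLH and E(spl)m7-HLH. No IDR summit was that near the other 4, though weaker regions of single replicates were. The sequences shown here are those the results turn on: the 201 bp around the 5 summits with the best IDR ranks of the complex, numbered along the plus strand, then those around the summits nearest E(spl)m3-HLH and farther from E(spl)m7-HLH. They were read from the RefSeq copy of Release 6 (dm6 coordinates) and run 5′ to 3′. Capitals mark matches, on either strand, to 8 short motifs that are spelled out with the promoters.
Summit 3, 5′ side of E(spl)mbeta-HLH, chr3R:26006315-26006515, plus strand: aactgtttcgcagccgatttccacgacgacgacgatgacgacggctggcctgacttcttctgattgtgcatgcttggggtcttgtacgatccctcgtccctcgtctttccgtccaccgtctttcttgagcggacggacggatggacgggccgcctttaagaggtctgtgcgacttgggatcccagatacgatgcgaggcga
Summit 14, intron of gro, chr3R:26042393-26042593, plus strand: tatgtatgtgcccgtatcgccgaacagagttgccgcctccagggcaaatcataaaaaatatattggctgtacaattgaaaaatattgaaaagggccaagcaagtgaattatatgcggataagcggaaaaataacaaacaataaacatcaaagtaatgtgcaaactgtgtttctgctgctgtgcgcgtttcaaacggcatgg
Summit 5, between E(spl)mbeta-HLH and E(spl)malpha-BFM, chr3R:26008518-26008718, plus strand: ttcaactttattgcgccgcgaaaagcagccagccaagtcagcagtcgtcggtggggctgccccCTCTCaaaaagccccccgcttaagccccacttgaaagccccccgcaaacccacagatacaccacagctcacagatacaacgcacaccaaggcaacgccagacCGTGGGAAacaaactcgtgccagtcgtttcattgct
Summit 8, lncRNA:CR43644, chr3R:26020854-26021054, plus strand: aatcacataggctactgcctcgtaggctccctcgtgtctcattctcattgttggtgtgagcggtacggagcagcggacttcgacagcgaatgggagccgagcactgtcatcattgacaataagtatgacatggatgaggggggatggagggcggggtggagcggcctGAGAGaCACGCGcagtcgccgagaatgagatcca
Summit 1, between E(spl)mgamma-HLH and E(spl)mbeta-HLH, chr3R:26002651-26002851, plus strand: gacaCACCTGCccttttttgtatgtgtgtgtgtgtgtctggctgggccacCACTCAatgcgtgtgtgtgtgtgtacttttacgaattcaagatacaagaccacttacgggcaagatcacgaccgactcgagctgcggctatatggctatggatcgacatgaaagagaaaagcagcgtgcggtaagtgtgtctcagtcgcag
Summit 10, 5′ side of E(spl)m3-HLH, chr3R:26021459-26021659, plus strand: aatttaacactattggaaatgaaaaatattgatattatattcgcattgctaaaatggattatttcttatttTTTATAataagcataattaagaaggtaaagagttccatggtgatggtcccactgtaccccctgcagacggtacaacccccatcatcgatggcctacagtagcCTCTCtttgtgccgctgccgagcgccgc
Summit 11, 5′ side of E(spl)m7-HLH, chr3R:26036471-26036671, plus strand: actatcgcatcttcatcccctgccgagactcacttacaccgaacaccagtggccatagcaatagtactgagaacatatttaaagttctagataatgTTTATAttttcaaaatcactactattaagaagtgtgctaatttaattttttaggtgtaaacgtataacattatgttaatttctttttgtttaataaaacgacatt

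The windows around the summits differ in composition. Summit 3, the strongest of the complex, and summit 14 hold none of the 8 motifs. Over the 15 summits of the complex and its surroundings, GC content of these windows ranged from 26.4% to 57.7% with a median of 46.8%. The median over all 7545 IDR peaks was 43.3%, with quartiles of 36.3% and 49.3%.

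Genes with an IDR summit no more than 500 bp from a TSS are called bound here. By that rule 3 of the 7 genes were bound, which is 42.9%, beside 27.9% of all protein-coding genes. With the 7545 strongest regions of each replicate in place of the IDR peaks, 3 genes were bound in replicate 1 (24.6% of all protein-coding genes), 3 in replicate 2 (27.8%) and 2 in replicate 3 (30.4%), a mean of 2.67 ± 0.577 (SD, n = 3). E(spl)m7-HLH was the gene missed in replicate 3. The summits lay upstream and not on the start sites: within 200 bp no member was bound in the IDR list, beside 22.0% of all protein-coding genes. Within 1000 bp the count was again 3, beside 31.7%. No test was made on these counts.

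**Figure D1:**
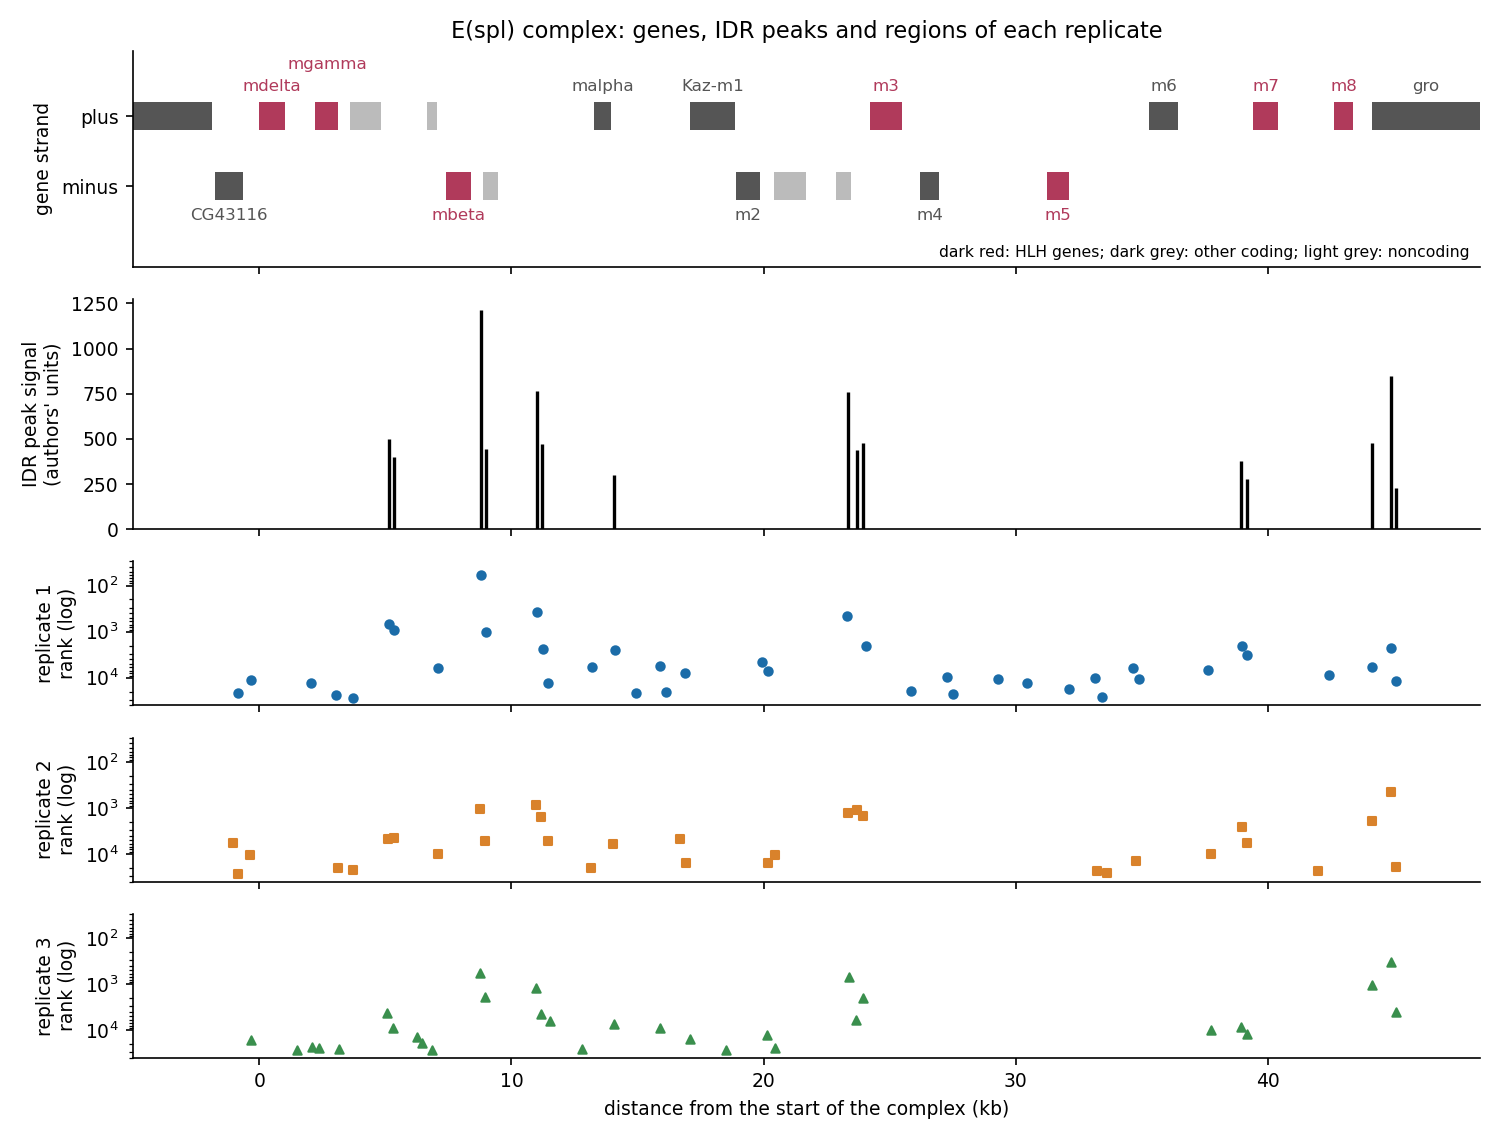
Genes of the E(spl) complex by strand (top), the signal of each IDR peak in the authors' units (second panel), and the rank of every region in each replicate list (lower panels, log scale with the strongest at the top) against distance from the start of the complex in kb. IDR peaks stand in groups around E(spl)mbeta-HLH, E(spl)m3-HLH, E(spl)m7-HLH and gro, and there is none in the 15012 bp that hold E(spl)m5-HLH.

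E(spl)mbeta-HLH (FBgn0002733, chr3R:26005046-26006023, minus strand, dm6) had the strongest peak. Its summit lay 392 bp upstream of the TSS and was rank 237 of the 7545 IDR peaks with a signal of 1214, and the peak interval, chr3R:26005913-26006842, covers the TSS, which the intervals at E(spl)m3-HLH and E(spl)m7-HLH do not. The strongest region within 500 bp of the TSS was rank 58 in replicate 1, rank 1044 in replicate 2 and rank 576 in replicate 3. Replicate 1 was the highest and replicate 2 the lowest. The mean rank was 559 ± 493 (SD, n = 3), and it was 317 without replicate 2.

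E(spl)m3-HLH (FBgn0002609, chr3R:26021823-26023127, plus strand) had the steadiest peak of the 3. The IDR summit lay 264 bp upstream of the TSS and was rank 1921 with a signal of 476. Ranks in the replicates were 2043, 1505 and 2037, a mean of 1862 ± 309 (SD, n = 3). The replicate summits lay 150, 279 and 265 bp from the TSS, so replicate 1 placed its summit nearer to the gene. With a distance of 1000 bp the mean rank of this gene was 766, because the nearby peak of lncRNA:CR43644 was then counted to it.

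E(spl)m7-HLH (FBgn0002633, chr3R:26037038-26038019, plus strand) had a pair of summits upstream. The stronger lay 467 bp from the TSS, at rank 2905 and a signal of 378, and the weaker lay 263 bp from the TSS, at rank 4884 and a signal of 277. The strongest region was rank 2003 in replicate 1, rank 2594 in replicate 2 and rank 8585 in replicate 3. Replicate 3 stood apart from the other replicates, and its region did not have a q-value under 0.01. The mean rank was 4394 ± 3642 (SD, n = 3), and it was 2299 without replicate 3.

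The other 4 genes had no IDR summit within 1000 bp of the TSS. E(spl)mdelta-HLH (FBgn0002734, chr3R:25997621-25998633, plus strand), the first gene of the complex, had a weak region in every replicate, at ranks 11260, 10470 and 16528, a mean of 12753 ± 3293 (SD, n = 3). Its q-value was under 0.01 in replicate 1 only. E(spl)mgamma-HLH (FBgn0002735, chr3R:25999851-26000761, plus strand) had regions at rank 13333 in replicate 1 and 23255 in replicate 3 and none among the 30000 of replicate 2. For both, the nearest IDR summit was summit 1, which lay 5130 bp from the TSS of E(spl)mdelta-HLH and 2900 bp from that of E(spl)mgamma-HLH.

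E(spl)m5-HLH and E(spl)m8-HLH, the most alike pair of proteins, were both without a region within 500 bp in replicates 2 and 3. E(spl)m5-HLH (FBgn0002631, chr3R:26028854-26029735, minus strand) had a region at rank 17631 in replicate 1, and its nearest IDR summit was 6836 bp away. E(spl)m8-HLH (FBgn0000591, chr3R:26040240-26041008, plus strand) had a region at rank 8662 in replicate 1, with a q-value under 0.01. Its nearest IDR summit, 1502 bp downstream, lay at the start of gro. The list lengths bound what can be said: a gene with no region may still hold a signal below the weakest of the 30000.

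Ordered by rank, E(spl)mbeta-HLH came before E(spl)m3-HLH in every replicate and their ranges did not overlap. The ranges of E(spl)m3-HLH and E(spl)m7-HLH did overlap. The range of E(spl)m7-HLH did not overlap that of E(spl)mdelta-HLH, though rank 8585 in replicate 3 and rank 10470 in replicate 2 are close. No test was made, since 3 paired values cannot give a two-sided p below 0.25 in an exact permutation test.

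**Figure D2:**
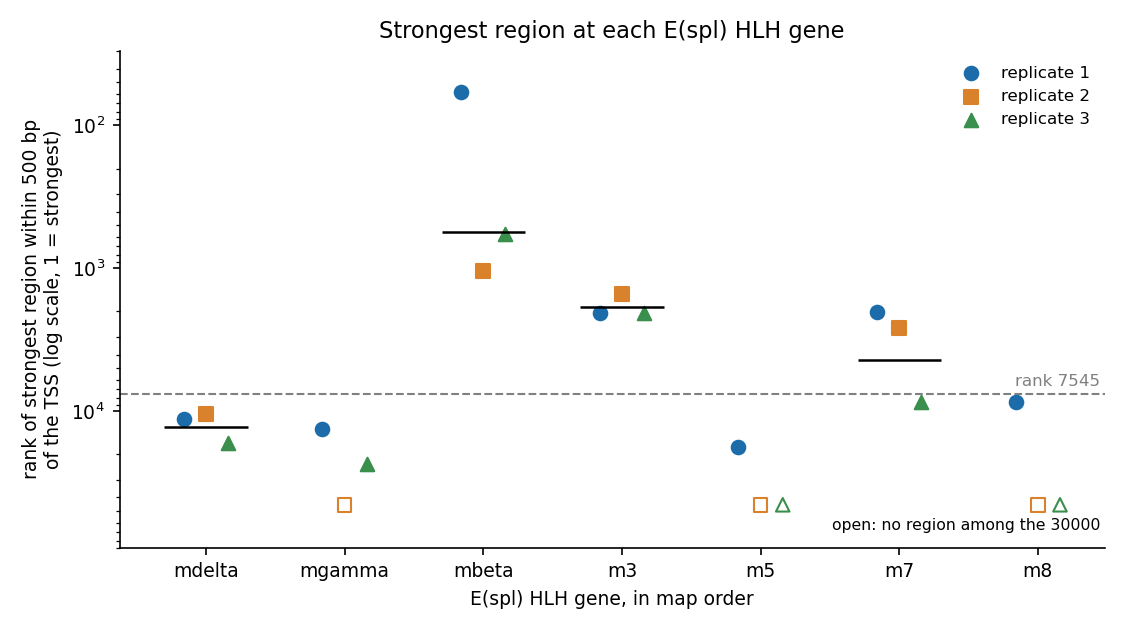
Rank of the strongest region within 500 bp of the TSS of each gene (log scale, strongest at the top) in the 3 replicates, with bars at the mean where all 3 have a region, and a dashed line at rank 7545. Open symbols stand for no region within 500 bp among the 30000 of that replicate. E(spl)mbeta-HLH and E(spl)m3-HLH lie above the line in all 3 replicates and E(spl)m7-HLH in 2.

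The protein-coding genes outside the complex whose ranks in the 3 replicates were nearest to those of E(spl)mbeta-HLH were kra, Rel and GstE12, out of 5010 genes with a region in every replicate. Likeness was the distance between log10 ranks over 3 samples. It was 0.25 for kra, with ranks 101, 926 and 626, 0.30 for Rel, with ranks 53, 584 and 403, and 0.33 for GstE12, with ranks 66, 560 and 374. The order of the replicates is shared by this choice.

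Across the complex, from the start of E(spl)mdelta-HLH to the end of E(spl)m8-HLH (chr3R:25997621-26041008, 43388 bp), there were 12 IDR summits. A further 3 lay within 5000 bp of its ends, all in gro. None of the 15 lay in the body of an HLH gene: 10 were intergenic, 2 were in exons of long noncoding RNAs and 3 were in gro. Of the 15, 10 were within 500 bp of some TSS, 4 within 500 bp of the TSS of an HLH gene, and 4 over 1000 bp from any TSS. Their IDR ranks ran from 237 to 6448 with a median of 1949, and 12 of the 15 were in the upper 50% of the list.

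The summits came in groups. In 5 of the 14 gaps between neighbours the distance was at most 210 bp, so single summits are not independent sites, and the 15 summits lay in 12 intervals. Summit 5, in the intergenic stretch between E(spl)mbeta-HLH and E(spl)malpha-BFM, was rank 715 in the IDR list and 373, 866 and 1237 in replicates 1, 2 and 3. Summit 1, between E(spl)mgamma-HLH and E(spl)mbeta-HLH, was rank 1741 and 680, 4816 and 4149 in the replicates. Both were thus highest in replicate 1. The widest gap, 15012 bp from chr3R:26021559 to chr3R:26036571, holds E(spl)m3-HLH, E(spl)m4-BFM, E(spl)m5-HLH and E(spl)m6-BFM. At the other end, the 5130 bp before summit 1 hold E(spl)mdelta-HLH and E(spl)mgamma-HLH.

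Of the 15 summits, 11 were recovered in all 3 replicates, that is, within 200 bp of one of the 7545 strongest regions of each. That compares with 55.9% of all IDR peaks. In single replicates 14, 15 and 12 were recovered, beside 78.7%, 80.8% and 83.2% of all IDR peaks. The median distance from an IDR summit to the nearest summit of a replicate was 15 bp. The farthest was 362 bp, at summit 9 in replicate 1. The recovery of summit 15 in replicates 1 and 2 rests on the region of summit 14 beside it, since its own region was rank 11847 in replicate 1 and 18847 in replicate 2.

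Replicate 1 ranked the complex higher than the others did. Of the 14 summits with a region within 200 bp in all 3 replicates, replicate 1 had the best rank at 9, all of them in the complex, replicate 2 at 2 and replicate 3 at 3, all of them in gro. Over the 6861 IDR summits matched in the same way, the shares were 38.9%, 31.0% and 30.1%. The strongest region of the whole stretch was at E(spl)mbeta-HLH in replicate 1, at rank 58. In replicate 2 it was in the gro intron at rank 445, and in replicate 3 at the same place at rank 336. In the stretch, 28 of 40 regions of replicate 1 had a q-value under 0.01, 17 of 32 in replicate 2 and 13 of 31 in replicate 3. Replicate 1 also had the most such regions over its whole list, and the part of depth or enrichment in this difference was not tested.

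**Figure D3:**
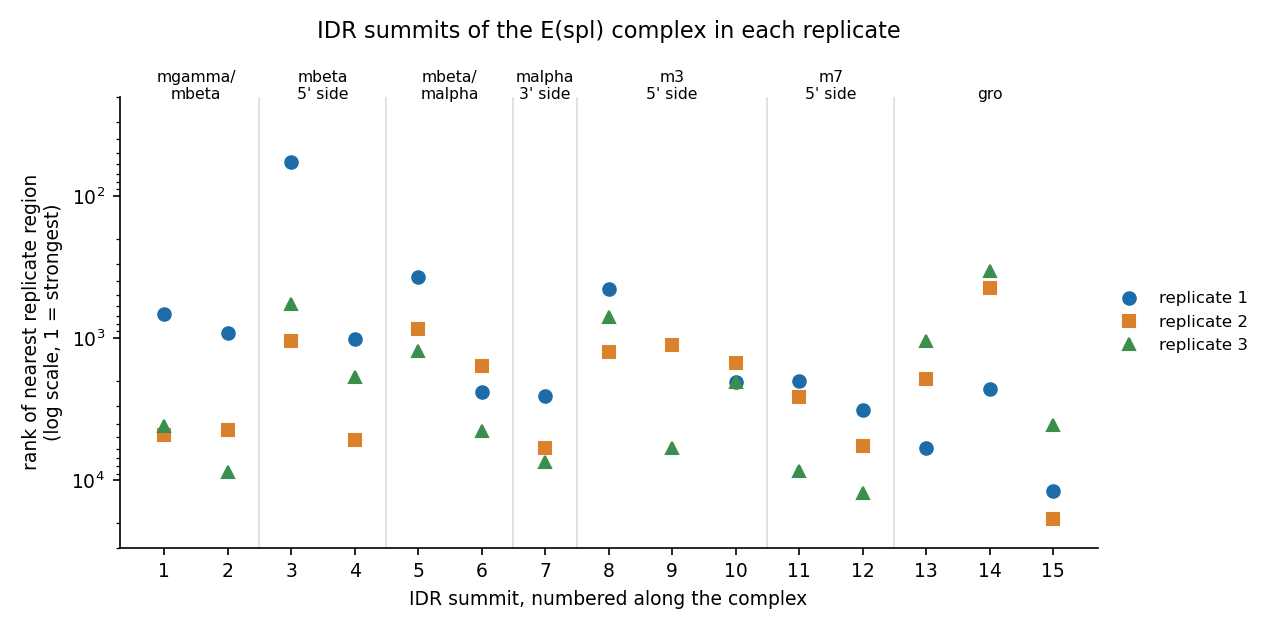
Rank (log scale, strongest at the top) of the replicate region nearest each of the 15 IDR summits, numbered along the complex and grouped by the gene beside them, with 1 symbol for each replicate. Replicate 1 lies highest at most summits up to 12 and lower than replicate 3 at the gro summits 13 to 15.

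The 12 summits of the complex came to 0.277 per kb, beside 0.0564 per kb over the chromosome arms, a ratio of 4.91. Of 3082 windows of the same length tiled along the arms, 59 (1.91%) held 12 or more summits, and the median window held 1. The complex is also rich in genes, with 12 protein-coding gene starts beside a median of 3. Among the 234 windows with at least 12 gene starts, the median was 4 summits, and 11 of them (4.70%) held 12 or more. These are descriptions of 1 stretch chosen for its genes, and neighbouring summits share intervals.

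The upstream sequences of the 3 bound genes and of E(spl)m8-HLH, the gene with the most Su(H) sites, are shown for comparison. Each is the 250 bp before the TSS on the strand of the gene, from the RefSeq copy of Release 6. That of E(spl)m3-HLH overlaps the window of summit 10. Capitals mark the motifs on either strand. They are the Su(H) site CGTGGGAA, TGTGGGAA, CGTGAGAA or TGTGAGAA; the proneural E-box GCAGCTG or GCAGGTG; the bHLH-Orange site CACGTG or CACGCG; the GAGA site GAGAG; the Zeste site TGAGTG; the DNA replication-related element TATCGATA; the Zelda site CAGGTAG; and the TATA box TATAAA.
E(spl)mbeta-HLH, chr3R:26006024-26006273, minus strand: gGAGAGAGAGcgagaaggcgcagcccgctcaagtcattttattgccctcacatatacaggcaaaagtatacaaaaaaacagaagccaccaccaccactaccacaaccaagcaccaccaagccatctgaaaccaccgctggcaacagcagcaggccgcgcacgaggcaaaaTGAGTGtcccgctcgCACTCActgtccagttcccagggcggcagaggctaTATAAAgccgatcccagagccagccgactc
E(spl)m3-HLH, chr3R:26021573-26021822, plus strand: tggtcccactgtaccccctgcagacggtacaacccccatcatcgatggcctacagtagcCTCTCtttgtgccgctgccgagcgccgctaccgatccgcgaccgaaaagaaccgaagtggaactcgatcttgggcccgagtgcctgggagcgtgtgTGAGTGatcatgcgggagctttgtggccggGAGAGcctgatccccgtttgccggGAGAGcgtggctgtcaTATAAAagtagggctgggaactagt
E(spl)m7-HLH, chr3R:26036788-26037037, plus strand: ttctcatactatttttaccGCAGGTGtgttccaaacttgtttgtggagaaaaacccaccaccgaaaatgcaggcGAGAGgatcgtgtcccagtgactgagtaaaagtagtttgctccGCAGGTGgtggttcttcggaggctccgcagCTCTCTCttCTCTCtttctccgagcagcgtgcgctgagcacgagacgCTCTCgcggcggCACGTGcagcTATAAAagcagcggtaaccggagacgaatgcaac
E(spl)m8-HLH, chr3R:26039990-26040239, plus strand: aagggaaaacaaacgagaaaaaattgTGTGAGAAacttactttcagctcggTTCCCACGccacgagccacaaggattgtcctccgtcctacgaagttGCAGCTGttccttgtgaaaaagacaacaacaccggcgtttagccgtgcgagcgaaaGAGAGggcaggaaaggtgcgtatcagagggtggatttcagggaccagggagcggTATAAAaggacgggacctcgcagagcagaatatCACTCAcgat

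No word of one motif holds a word of another, and GAGA matches can overlap each other. Motif counts for promoters cover 250 bp before to 50 bp after the TSS, for the 7 genes and for all 13945 protein-coding genes. The Su(H) site was in 2 of 7 promoters, beside 3.18% of all: E(spl)m8-HLH had matches starting at −224 and −199 from the TSS and E(spl)m5-HLH had 1 at −146. Neither of those genes had an IDR summit within 500 bp of the TSS, and the 3 bound genes had no match to this site in the promoter. This window does not reach the nearest IDR summits of the bound genes, E(spl)mbeta-HLH, E(spl)m3-HLH and E(spl)m7-HLH, at 392, 264 and 263 bp upstream. The proneural E-box was in 2 of 7, E(spl)m7-HLH and E(spl)m8-HLH, beside 8.71% of all, and the bHLH-Orange site was in 2 of 7, E(spl)mdelta-HLH and E(spl)m7-HLH, beside 10.02%.

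The GAGA site, bound by the GAGA factor at many open promoters, was in 5 of 7 promoters beside 29.7% of all. There were 3 matches in E(spl)mbeta-HLH, 3 in E(spl)m3-HLH, 5 in E(spl)m7-HLH, 2 in E(spl)mdelta-HLH and 1 in E(spl)m8-HLH, and none in E(spl)mgamma-HLH or E(spl)m5-HLH. The 3 bound genes thus held 3 to 5 matches and the 4 unbound genes 0 to 2, which was seen after the counts were made and was not tested. That split rests on counting overlapping matches. The 3 in E(spl)mbeta-HLH, starting at −249, −247 and −245, form 1 run of letters, whereas the 2 in unbound E(spl)mdelta-HLH, at −227 and −147, are separate. The exact TATA box word TATAAA was in 5 of 7, all but E(spl)mdelta-HLH and E(spl)mgamma-HLH, beside 45.8% of all. Variants of the word were not sought, and E(spl)mgamma-HLH has the similar run tatataag shortly before its TSS. The Zeste site was in 3 of 7 beside 11.9%, and the Zelda site in 1 of 7, E(spl)m5-HLH, beside 1.64%. No promoter of the 7 held the replication-related element, beside 9.36% of all.

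The same motifs were sought in the 201 bp windows of the 15 summits. The Su(H) site was in 1 window (summit 5), beside 1.83% of all 7545 IDR windows. The GAGA site was in 4, beside 30.5%, and the TATA box in 3, beside 25.3%. The proneural E-box was in 2, beside 6.24%, the bHLH-Orange site in 1, beside 9.62%, and the Zeste site in 1, beside 11.8%. The replication-related element and the Zelda site were in none, beside 2.33% and 0.981%. With 150 bp on each side the Su(H) site was in 4 windows, beside 3.05%. Some windows of that width overlap, and the site of summit 5 also lies in the window of summit 6. The 4 windows therefore need not hold 4 separate sites. A match is a run of letters and not a measured binding site.

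The HLH genes share the complex with other Notch targets. The 4 Bearded family genes of the complex, E(spl)malpha-BFM, E(spl)m2-BFM, E(spl)m4-BFM and E(spl)m6-BFM, encode small inhibitors of the ubiquitin ligase Neuralized, and 0 of 4 were bound. Among the 7545 strongest regions of replicate 1, though, were those at E(spl)malpha-BFM (rank 5996) and E(spl)m2-BFM (rank 4617), with ranks of 19897 and 15611 in replicate 2 and 25531 and 13042 in replicate 3. E(spl)malpha-BFM had summit 7 at 805 bp from its TSS, rank 4295 in the IDR list. Kaz-m1 (E(spl)m1), which encodes a Kazal-type protease inhibitor, was not bound either, with replicate ranks of 8069, 4778 and 15321. Its region in replicate 2 was among the 7545 strongest of that replicate. Thus 3 of 12 protein-coding genes of the complex were bound (25%), all of them HLH genes, a share near the 27.9% of all protein-coding genes. Of the 6 noncoding genes 2 were bound, beside 11.5% of all genes of that class. They were lncRNA:CR43644 at rank 718, with replicate ranks of 455, 1128 and 715, and lncRNA:CR45039 at rank 2188. The latter had ranks of 1012 and 5239 in replicates 1 and 2 and no region within 500 bp in replicate 3. In replicate 3 a region of rank 1891 lay 58 bp from its IDR summit but a little over 500 bp from the TSS. Both noncoding genes lie beside a bound HLH gene, E(spl)m3-HLH and E(spl)mbeta-HLH, so a peak there cannot be given to one gene of the pair.

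The gene gro, which encodes the co-repressor Groucho itself, adjoins E(spl)m8-HLH and was bound at IDR rank 538, 148 bp from 1 of its 4 TSSs. Its ranks were 2295, 445 and 336 in replicates 1, 2 and 3, so replicate 1 was the lowest here, whereas it was the highest at E(spl)mbeta-HLH.

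Of the Notch pathway and related genes elsewhere in the genome, 17 of 41 were bound (41.5%), beside 27.9% of all protein-coding genes. In replicates 1, 2 and 3 the counts were 14, 14 and 19, beside 24.6%, 27.8% and 30.4% of all protein-coding genes. Among the ligands and their activators 2 of 4 were bound: neur, the ubiquitin ligase that activates ligands, at ranks 769, 865 and 666, and mib1, a ligase of like function, at 3857, 5504 and 6353. The ligand gene Ser was not bound, and Delta had no region within 500 bp in any replicate. For the receptor and its processing 7 of 13 were bound, led by numb, an inhibitor of Notch in asymmetric division, at ranks 509, 201 and 259, aph-1, a subunit of gamma-secretase, at 816, 280 and 439, and rumi, which glycosylates Notch, at 5275, 1359 and 1327.

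Of the nuclear effectors and co-repressors 4 of 6 were bound. The co-activator gene mam had ranks of 425, 789 and 1688, skd, a Mediator subunit, 9380, 614 and 777, and CtBP, a co-repressor, 1746, 2696 and 3594. For bHLH-Orange genes outside the complex the count was 2 of 5, led by hry, the pair-rule repressor Hairy, at ranks 59, 155 and 173, followed by Sidpn at 846, 10858 and 6386. Proneural genes, which the E(spl) repressors oppose, were listed with da, their common partner, and emc, an HLH inhibitor without a basic region. That list gave 2 of 9: emc at 852, 1906 and 2170, and da at 5793, 2493 and 2448. The proneural genes ac, sc, l(1)sc, ase, ato, amos and cato were not bound. Of the 4 Bearded family genes elsewhere 0 were bound, in the IDR list and in each replicate.

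**Figure D4:**
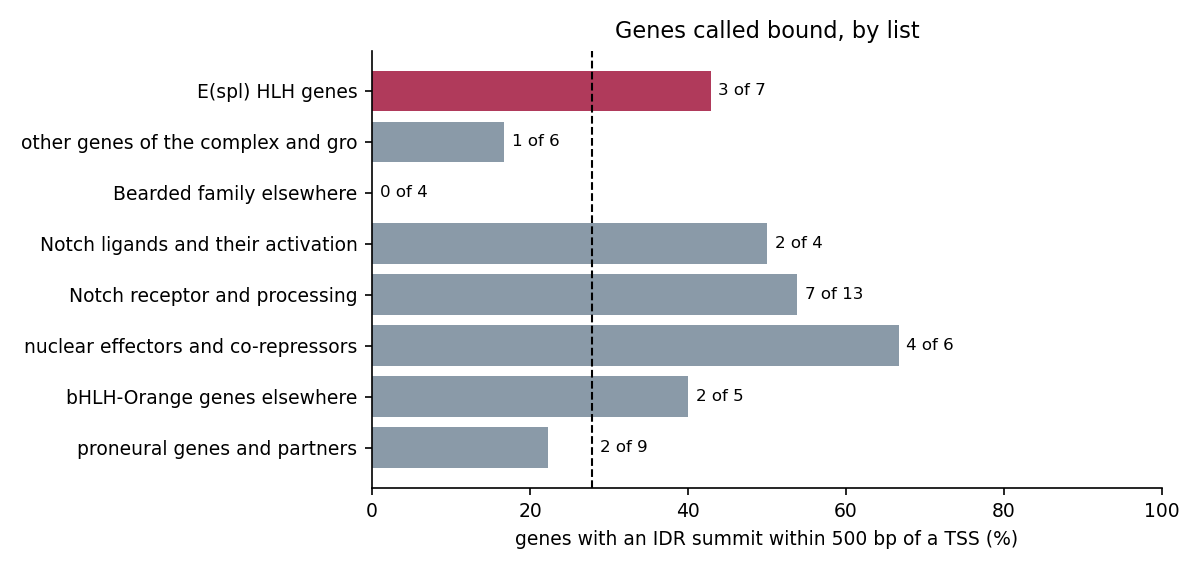
Share of the genes of each list that had an IDR summit within 500 bp of a TSS (percent), with the number bound of the number matched beside each bar, and a dashed line at 27.9%, the share of all protein-coding genes. The E(spl) HLH genes had 3 of 7, and the Bearded family genes elsewhere 0 of 4.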

How the data were processed

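CG10543-eGFP ChIP-seq regions of 3 embryo replicates and their IDR peaks were used on dm6, and dm3 lists were not used. Regions were called by the authors against a single control alignment, per the file headers. The signal of each region, its −log10 q-value and summit are as deposited by the authors. The sources used here do not give the aligner or the peak caller.

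Genes came from Ensembl release 115, without transposable elements, and sequence from RefSeq Release 6. Regions were ranked by signal, and genes, summits, windows and motifs were matched by position with Python 3.11.15, numpy 2.4.6 and pandas 2.3.3. Global alignments used Biopython 1.88 with BLOSUM62 and gap penalties of 11 and 1, and matplotlib 3.10.9 drew the plots. Matching and ranking were checked on simulated data. Replicates come from separate biosamples, per the labels. No p-value was computed, since there is 1 group.

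The members, the 8 gene lists and the motifs were chosen with earlier results of these data known. Named genes were the members, all genes of the complex with gro, the 3 best ranked bound genes of each list, and the 3 genes most like the best ranked member. Other list members are named where a list is given in full. Delta, Nct and Kaz-m1 were matched through older symbols. Alternatives were other TSS distances, TSS choice, flanks, match distances, motif windows, the upper 50% of peaks, and each replicate left out. Further ones were 1 summit per interval and, for recovery, all 30000 regions of a replicate or those with a q-value under 0.01.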

Additional observations from a re-analysis of the deposited data

How the results depend on the processing

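Of 79 alternative values, 64 stayed within 1.5 times the value given for a count, or within 1 SD for a mean, and 15 moved. At 200 bp from the start site the HLH genes bound fell to 0, and the mean per replicate to 0.333. With the upper 50% of IDR peaks, the summit density ratio rose to 8.18, and with 1 summit per interval it fell to 3.74. Leaving out 1 replicate in turn, and keeping the IDR summits recovered in both others, gave 2 to 3 HLH genes bound and 11 to 14 summits. The IDR step itself was not run again. E(spl)m7-HLH was the gene lost, whenever replicate 3 was kept. Over the replicates kept, the mean rank ranged from 317 to 810 for E(spl)mbeta-HLH and from 2299 to 5590 for E(spl)m7-HLH. Most values that moved were motif counts in summit windows, which changed with the width of the window. No paired analysis was possible because there is 1 group and so no groups that share replicate numbers. The depth is unknown, so a missing region does not show absence of binding.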

Other observations

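Weak regions were more numerous in replicate 1 at unbound genes in the right part of the complex. Within 500 bp of the TSS, replicate 1 had regions at rank 9662 for E(spl)m4-BFM, 17631 for E(spl)m5-HLH, 10903 for E(spl)m6-BFM and 8662 for E(spl)m8-HLH, and replicates 2 and 3 had none among their 30000. The distance bears on this, since replicate 2 had a region of rank 13946 a little over 500 bp from the TSS of E(spl)m6-BFM and one of rank 23961 somewhat farther from that of E(spl)m8-HLH. Of the 4 Bearded family genes elsewhere, Brd and Tom had regions in replicate 1 alone, at ranks 8505 and 9676. Ocho had one in all 3 replicates, at ranks 16574, 18600 and 17313, and BobA had none in any.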
